A study of Mus musculus with 6 samples.

Results

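The genes described here are 10 genes of the lipid droplet, the store of triglyceride in the hepatocyte. They were chosen by name, with earlier results of these data known. They are the perilipins *Plin2*, *Plin3*, *Plin4* and *Plin5*, the CIDE genes *Cidea*, *Cideb* and *Cidec*, and the lipolysis genes *Pnpla2*, *G0s2* and *Mgll*. They are 10 of the 54115 genes quantified, and all 10 were among the 12524 genes with enough reads to be tested. RNA-seq was performed on the livers of 3 wild-type (WT) and 3 *Sirt7* knockout (*Sirt7* KO) male mice, each library from a separate mouse. All 6 mice were 24 months old and had been fasted for 16 h. *Sirt7* encodes a nuclear NAD-dependent deacylase, and the comparison asks how its loss changes gene expression in the aged, fasted liver. The knockout line was obtained from another laboratory and backcrossed to C57BL/6J, both genotypes were bred from heterozygous parents, and the knockout is of the whole body rather than of the liver alone.

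Lipid droplets consist of a core of neutral lipid under a single layer of phospholipid, and the proteins on that layer decide how fast the core is built up or broken down. Perilipins coat the droplet and limit the access of lipases, CIDE proteins sit where droplets touch and promote their fusion and growth, and lipolysis proceeds stepwise from triglyceride to diglyceride, monoglyceride and free fatty acid. In fasting, fatty acids from adipose tissue flow into the liver, hepatic droplets increase, and many droplet genes are known targets of the fatty acid receptor PPAR-alpha.

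*Plin4*, *Plin5* and *Mgll* had the smallest unadjusted p-values of the 10 genes and *Plin2* was the most abundant of them, so the 250 bases before the start of these 4 genes are shown. RefSeq (GRCm38.p6) held such a window for 9 of the 10 genes. The starts are those of RefSeq, which can differ from the gene ends of the GENCODE M21 annotation given below. By that annotation the windows of *Plin2*, *Plin4*, *Plin5*, *Cideb* and *G0s2* reach into the gene, and that of *Plin3* lies wholly inside it. Each is written 5′ to 3′ on the strand of its gene, and capitals mark the letters of a motif found on either strand, as described after the sequences. The *Plin2* window is chr4:86670060-86670309 (minus strand), that of *Plin4* chr17:56109783-56110032 (minus), that of *Plin5* chr17:56117549-56117798 (minus) and that of *Mgll* chr6:88724162-88724411 (plus).
Plin2: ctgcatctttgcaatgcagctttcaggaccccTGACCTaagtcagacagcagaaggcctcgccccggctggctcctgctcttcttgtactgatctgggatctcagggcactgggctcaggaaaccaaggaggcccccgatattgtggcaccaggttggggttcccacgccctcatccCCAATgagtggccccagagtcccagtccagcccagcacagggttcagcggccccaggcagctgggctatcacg
Plin4: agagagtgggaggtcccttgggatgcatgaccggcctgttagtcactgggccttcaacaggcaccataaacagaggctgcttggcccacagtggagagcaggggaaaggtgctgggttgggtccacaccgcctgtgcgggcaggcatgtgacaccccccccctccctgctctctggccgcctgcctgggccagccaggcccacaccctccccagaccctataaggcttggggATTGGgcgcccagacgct
Plin5: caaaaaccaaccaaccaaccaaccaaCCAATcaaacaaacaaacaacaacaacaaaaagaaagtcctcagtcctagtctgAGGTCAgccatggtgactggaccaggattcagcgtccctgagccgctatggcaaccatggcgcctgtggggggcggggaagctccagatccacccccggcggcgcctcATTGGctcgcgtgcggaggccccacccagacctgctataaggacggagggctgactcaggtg
Mgll: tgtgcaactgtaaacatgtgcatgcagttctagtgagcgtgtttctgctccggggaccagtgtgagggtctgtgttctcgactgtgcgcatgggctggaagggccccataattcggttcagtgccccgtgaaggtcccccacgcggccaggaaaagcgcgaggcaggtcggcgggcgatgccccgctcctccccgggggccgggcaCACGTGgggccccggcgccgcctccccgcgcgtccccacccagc

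The motifs searched were the nuclear receptor half-site AGGTCA, its direct repeat with a 1-base gap, the E-box CACGTG, the CCAAT box, the cyclic AMP response element TGACGTCA and the TATA box TATAAA, each on both strands, the half-site also being part of the repeat. The half-site was found in 2 of the 9 windows, in *Plin2* on the reverse strand at 218 to 213 bases before the start and in *Plin5* on the forward strand at 170 to 165 bases before it. It occurred in 14.0% of the 32851 windows of this length in the RefSeq table. CCAAT was found in 4 windows, those of the 4 perilipins and of none of the other 5 genes, against 33.8% of all windows, with a pair of copies in *Plin5*. *Mgll* held the E-box at 44 to 39 bases before the start, a sequence found in 6.02% of all windows. *Cideb*, whose window is not shown, held the TATA letters, found in 12.4% of all windows. The direct repeat, in 0.0335% of all windows, and the cyclic AMP response element, in 1.55%, were not found in any of the 9. These are matches of letters and no measure of binding.

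By the GENCODE M21 annotation of GRCm38, *Plin4* (chr17:56100591-56109803) and *Plin5* (chr17:56111601-56117596) are neighbours on the minus strand, 1797 bases apart with 0 genes between them. *Plin3* lies on the same chromosome and strand at chr17:56277476-56292873. *Plin2* lies at chr4:86648386-86670060 (minus), *Cidec* at chr6:113424634-113435760 (minus), *Mgll* at chr6:88724412-88828360 (plus) and *Pnpla2* at chr7:141455198-141460743 (plus). *G0s2*, at chr1:193272161-193273217 (minus), lies entirely within the span of *Lamb3* on the opposite strand. *Cideb*, at chr14:55754050-55758458 (minus), shares 1451 bases with *Nop9* on the opposite strand. The libraries were not stranded, so reads in such shared stretches cannot be given to a strand.

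Between 9994860 and 13424776 reads per liver were assigned to transcripts. The edgeR quasi-likelihood test called 1 of the 12524 genes, where a call needed a fold change over 1.5 with an adjusted p-value under 0.05. *Sirt7* itself had 55.2, 45.5 and 47.3 CPM (read counts scaled by TMM to a common library size) in WT 1, 2 and 3 and 28.6, 41.7 and 40.8 CPM in *Sirt7* KO 1, 2 and 3, lower in every knockout liver (log2 fold change -0.41, adjusted p = 0.42). A sum over the gene does not separate exons that the knockout allele lacks from those it keeps, so this is no check of the genotype. Hepatocyte markers summed to between 60601 and 70797 CPM, with *Alb* the highest, which fits the label of liver. Adipocyte markers were near 0: their 7 genes summed to 0.272 to 2.20 CPM in WT and 0.771 to 4.21 CPM in *Sirt7* KO, *Adipoq* had 1 read in all and was at 0 in the other 5 livers, and none reached the minimum for testing. Of the tested markers of stellate cells (highest *Dcn*), Kupffer cells (*Clec4f*), sinusoidal endothelial cells (*Clec4g*), cholangiocytes (*Spp1*) and lymphocytes (*Ighm*), 0 passed the edgeR test, and 0 had an unadjusted p under 0.05, while DESeq2 with length offsets called 1, the endothelial marker *Stab1*, as lower in *Sirt7* KO. Its mean of 14.1 ± 1.77 CPM in WT and 16.1 ± 2.61 CPM in *Sirt7* KO (SD) gave the opposite sign in edgeR without offsets (log2 fold change 0.20, adjusted p = 0.75). Kupffer cell markers summed to 38.7, 42.8 and 131 CPM in WT and 111, 40.3 and 75.3 CPM in *Sirt7* KO, and their part in the results was not tested.

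No droplet or lipase gene passed the edgeR test at an adjusted p-value under 0.05 with all 6 livers, where 0.00798% of all tested genes were called. The fitted log2 fold changes of *Sirt7* KO over WT were below 0 for 7 genes and above 0 for 3 (8 and 2 with scaling by total counts, where *Cideb* was at -0.01), with a median of -0.37, while the median of all tested genes was -0.01. The number of genes below 0 was 6 without WT 2, 6 without *Sirt7* KO 2, 5 without *Sirt7* KO 3 and 8 without *Sirt7* KO 1, with medians of -0.19, -0.21, -0.20 and -1.10. At an unadjusted p under 0.05, 3 of the 10 genes were lower in *Sirt7* KO (*Plin4*, *Plin5* and *Mgll*) against 4.78% of all tested genes, and 0 were higher against 6.54%. In 2 genes, *Plin4* and *Mgll*, all *Sirt7* KO livers lay below all WT livers, against 8.09% of all tested genes. In 0 genes did all *Sirt7* KO livers lie above all WT livers, against 8.74%. In bulk liver, fewer cells of a type and less RNA per cell cannot be told apart.

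**Figure D1:**
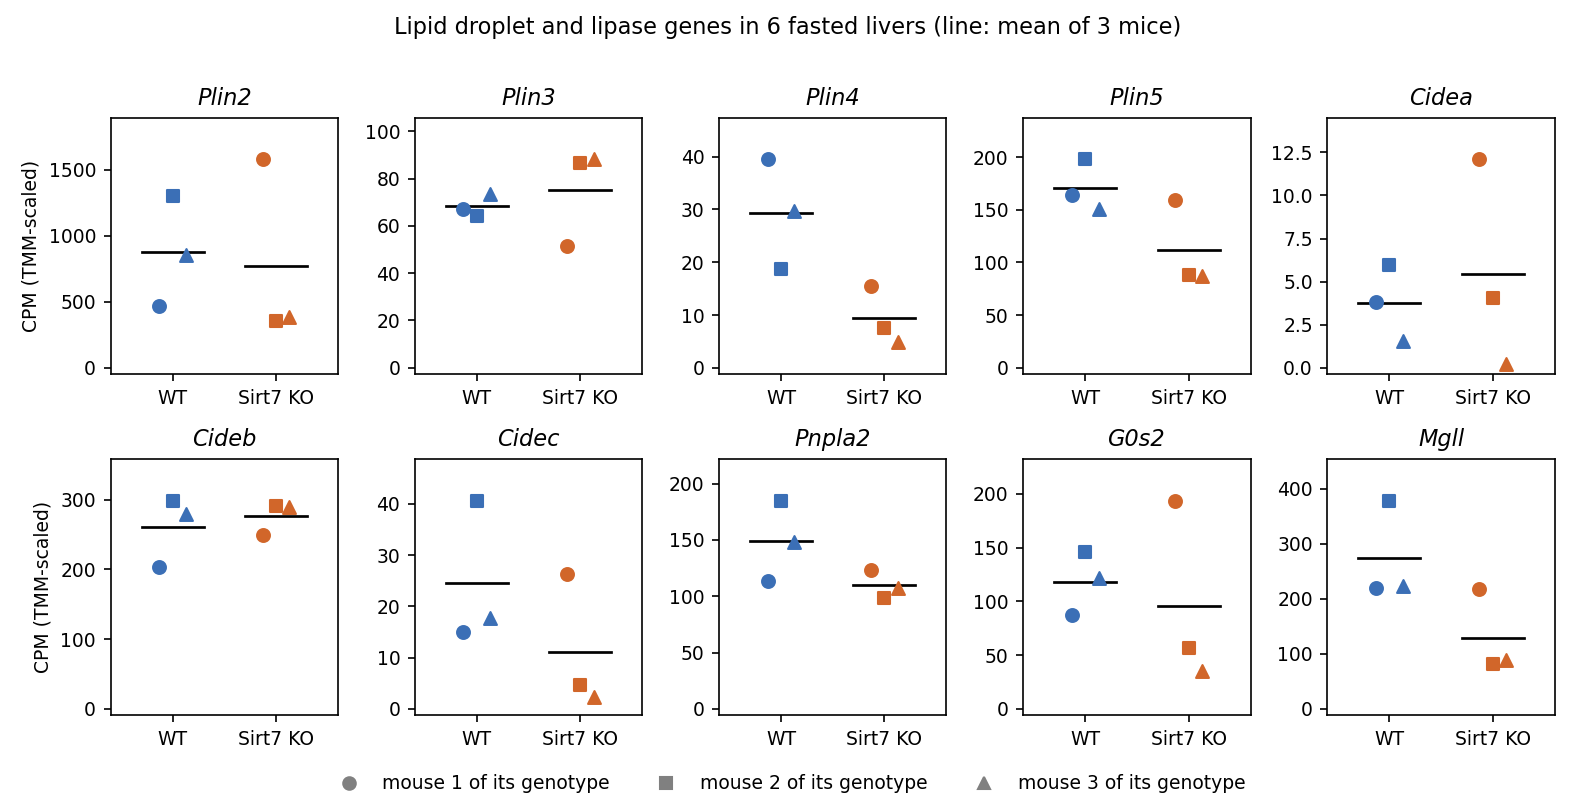
CPM (TMM-scaled read counts, linear axes that include 0) of each of the 10 genes in 3 WT (blue) and 3 *Sirt7* KO (orange) livers, with a marker shape for each mouse number and a line at the mean of 3 mice. *Sirt7* KO 2 and 3 are the lowest pair in 7 of the 10 panels, and *Sirt7* KO 1 is the highest liver in the panels of *Plin2*, *Cidea* and *G0s2*.

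*Plin4* had the largest fitted difference of the list with all 6 livers, while that of *Cidec* was larger without *Sirt7* KO 1 (-2.79 against -2.22) and without WT 1 (-1.38 against -1.37). The protein coats small, nascent droplets and is best known from adipocytes and muscle. WT 1, 2 and 3 had 39.5, 18.7 and 29.7 CPM (466, 206 and 401 reads), and *Sirt7* KO 1, 2 and 3 had 15.6, 7.63 and 4.91 CPM (170, 72 and 51 reads). The groups did not overlap, and *Sirt7* KO 1 lay close below WT 2. The mean was 29.3 ± 10.4 CPM in WT and 9.37 ± 5.54 CPM in *Sirt7* KO (SD, n = 3 each), a log2 fold change of -1.64 ± 0.41 (SE). The 95% interval ran from -2.57 to -0.71, so that WT was 3.11-fold higher by the fit (adjusted p = 0.19 by edgeR). Only 0.495% of tested genes had a log2 fold change as low or lower. Without *Sirt7* KO 1 the log2 fold change was -2.22 and the adjusted p was 0.025. With any other mouse left out it was -1.88 to -1.33, with an adjusted p of 0.36 to 0.53 (edgeR).

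*Plin5* brings droplets next to mitochondria and restrains lipolysis by holding the lipase encoded by *Pnpla2* and its coactivator. It had 164, 198 and 151 CPM in WT 1, 2 and 3 and 159, 88.4 and 86.7 CPM in *Sirt7* KO 1, 2 and 3. *Sirt7* KO 2 and 3 were each below every WT liver, while *Sirt7* KO 1 lay within the WT range. The log2 fold change was -0.62 (SE 0.25, interval -1.17 to -0.06, adjusted p = 0.39), and without *Sirt7* KO 1 it was -0.96 with an adjusted p of 0.030. With any other mouse left out it was -0.69 to -0.46, with an adjusted p of 0.49 to 0.77 (edgeR).

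*Plin2*, the main perilipin of the hepatocyte, had 470, 1300 and 852 CPM in WT 1, 2 and 3 and 1578, 355 and 382 CPM in *Sirt7* KO 1, 2 and 3. The highest and the lowest liver of all 6 were both *Sirt7* KO, a 4.45-fold span, so the spread within the genotype exceeded the difference between the genotypes. The log2 fold change was -0.18 with an interval of -1.48 to 1.13 (adjusted p = 0.94), and without *Sirt7* KO 1 it was -1.25 (adjusted p = 0.13). *Plin3*, a perilipin that moves between the cytosol and young droplets, was the one perilipin with a positive fitted value. It had 67.1, 64.3 and 73.3 CPM in WT and 51.6, 86.5 and 88.1 CPM in *Sirt7* KO, so *Sirt7* KO 1 was the lowest of the 6 livers here and the other *Sirt7* KO livers were the highest. The log2 fold change of *Plin3* was 0.14 (SE 0.21, adjusted p = 0.84).

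Among the CIDE genes, *Cidec*, whose protein (also called Fsp27) drives the growth of large droplets by lipid transfer, varied more between livers than any other gene of the list but *Cidea*, by 16.9-fold. WT 1, 2 and 3 had 15.1, 40.6 and 17.8 CPM (178, 448 and 241 reads) and *Sirt7* KO 1, 2 and 3 had 26.4, 4.66 and 2.41 CPM (288, 44 and 25 reads). *Sirt7* KO 1 was above 2 of the WT livers and 10.9-fold above *Sirt7* KO 3. The fitted log2 fold change of -1.12 had an interval of -2.81 to 0.56 (adjusted p = 0.62), and without *Sirt7* KO 1 it was -2.79 with an adjusted p of 0.039. With any other mouse left out it was -1.38 to -0.56, with an adjusted p of 0.66 to 0.89 (edgeR). *Cidea*, known from brown fat and fatty liver, was at the low end, with 45, 66 and 21 reads in WT and 132, 38 and 2 reads in *Sirt7* KO. These are 3.81, 5.99 and 1.55 CPM in WT and 12.1, 4.03 and 0.193 CPM in *Sirt7* KO, a 62.7-fold span within the knockout genotype that encloses the WT range. Its log2 fold change of 0.54 had an interval of -1.56 to 2.64 and was -0.85 without *Sirt7* KO 1. *Sirt7* KO 1, the highest liver for *Cidea*, also had the highest sum of adipocyte markers, 4.21 CPM, of which *Cfd* made up 3.20 CPM, and the part of this in the result was not tested. *Cideb*, the CIDE gene of the hepatocyte, which also takes part in lipoprotein lipidation, differed least from liver to liver. It had 203, 299 and 280 CPM in WT and 249, 292 and 290 CPM in *Sirt7* KO, and the log2 fold change was 0.09 (interval -0.31 to 0.49, adjusted p = 0.90). Without *Sirt7* KO 1 it was 0.16 (adjusted p = 0.71).

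The lipolysis genes are taken in the order of their steps. *Pnpla2* encodes ATGL, the lipase of the first step, and had 113, 185 and 148 CPM in WT 1, 2 and 3 and 124, 98.5 and 107 CPM in *Sirt7* KO 1, 2 and 3. *Sirt7* KO 2 and 3 were below every WT liver and *Sirt7* KO 1 was above WT 1. The log2 fold change was -0.44 (SE 0.20, interval -0.88 to 0.004), with an adjusted p of 0.45 in all livers and 0.25 without *Sirt7* KO 1. *G0s2* encodes the inhibitor that binds ATGL, and it had 87.3, 146 and 122 CPM in WT and 194, 56.9 and 35.3 CPM in *Sirt7* KO. The WT livers lay between *Sirt7* KO 1 above and *Sirt7* KO 2 and 3 below, so the log2 fold change of -0.31 had a wide interval, -1.51 to 0.89 (adjusted p = 0.88). Without *Sirt7* KO 1 it was -1.36 with an adjusted p of 0.050, at the threshold and not called. With any other mouse left out it was -0.49 to 0.083, with an adjusted p of 0.89 to 0.99 (edgeR). *Mgll* encodes monoglyceride lipase, the enzyme of the last step, and had 220, 378 and 224 CPM in WT and 218, 82.0 and 88.4 CPM in *Sirt7* KO. The genotypes did not overlap, but *Sirt7* KO 1 lay just under WT 1, by 220.0 against 217.7 CPM. The mean of *Mgll* was 274 ± 90.3 CPM in WT and 129 ± 76.5 CPM in *Sirt7* KO (SD, n = 3 each). WT was 2.12-fold higher by the fit, a log2 fold change of -1.08 ± 0.38 (SE, interval -1.95 to -0.21, adjusted p = 0.34). Without *Sirt7* KO 1 it was -1.68 with an adjusted p of 0.024. With any other mouse left out it was -1.22 to -0.78, with an adjusted p of 0.42 to 0.71 (edgeR).

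**Figure D2:**
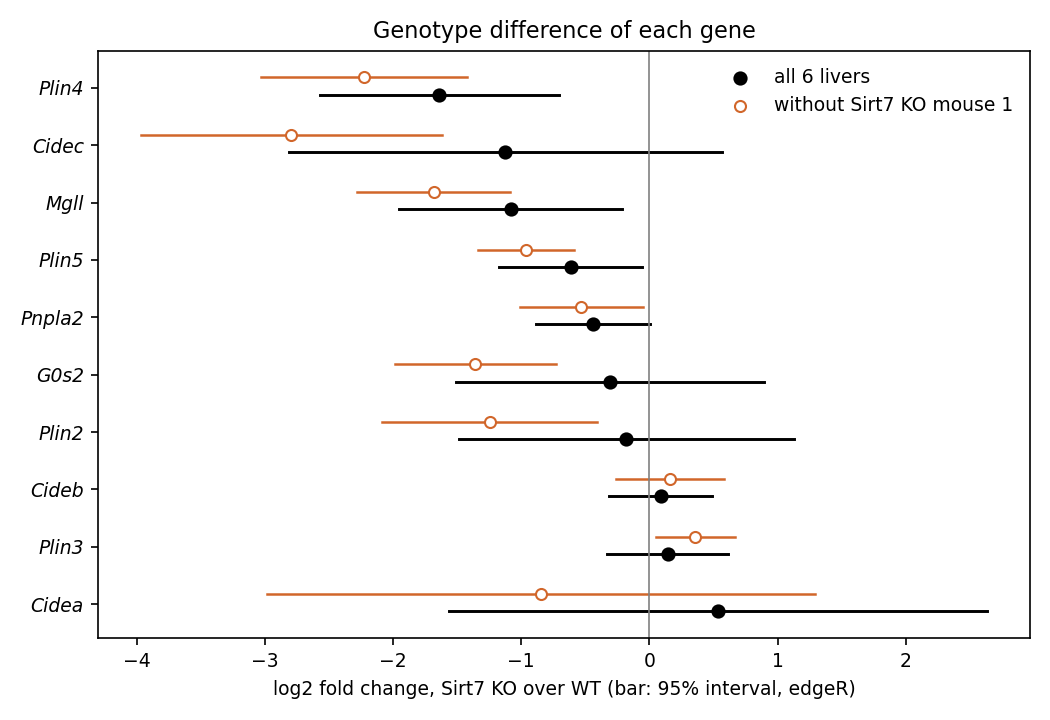
Fitted log2 fold change of *Sirt7* KO over WT for each gene (horizontal axis) with its 95% interval, from all 6 livers (black) and without *Sirt7* KO 1 (orange, open). With all livers the intervals of *Plin4*, *Mgll* and *Plin5* do not reach 0, and without *Sirt7* KO 1 those of 8 genes do not reach 0, 7 below it and *Plin3* above it. The fits with any other mouse left out are not drawn.

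The number of genes of the list that passed the test changed with 1 liver, with the tool and with the filter. With all 6 livers 0 passed in edgeR, and without *Sirt7* KO 1 edgeR called 4 (*Plin4*, *Plin5*, *Cidec* and *Mgll*, all lower in *Sirt7* KO), where 1.95% of all tested genes were called. In that fit 7 genes were lower at an unadjusted p under 0.05, against 8.12% of all tested genes, and 1, *Plin3*, was higher, against 8.97%. In 7 genes both remaining *Sirt7* KO livers lay below all WT livers, against 18.4% of all tested genes, and in 1 gene both lay above, against 18.5%. Without WT 2, *Sirt7* KO 2 or *Sirt7* KO 3, by contrast, *Plin4* was the only one of the 10 at an unadjusted p under 0.05, and 0 passed the adjusted test. The labels give no reason to set *Sirt7* KO 1 apart, and these fits are shown side by side for that reason. DESeq2 with all 6 livers and transcript length offsets called *Plin4* and *Mgll* (log2 fold changes -1.62 and -1.16, adjusted p = 0.011 and 0.041), against 1.87% of all tested genes. Without the offsets DESeq2 called *Plin4* alone, against 1.77%. Without a filter on low counts edgeR called *Plin4*, *Cidec* and *Mgll*, against 2.27%.

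**Figure D3:**
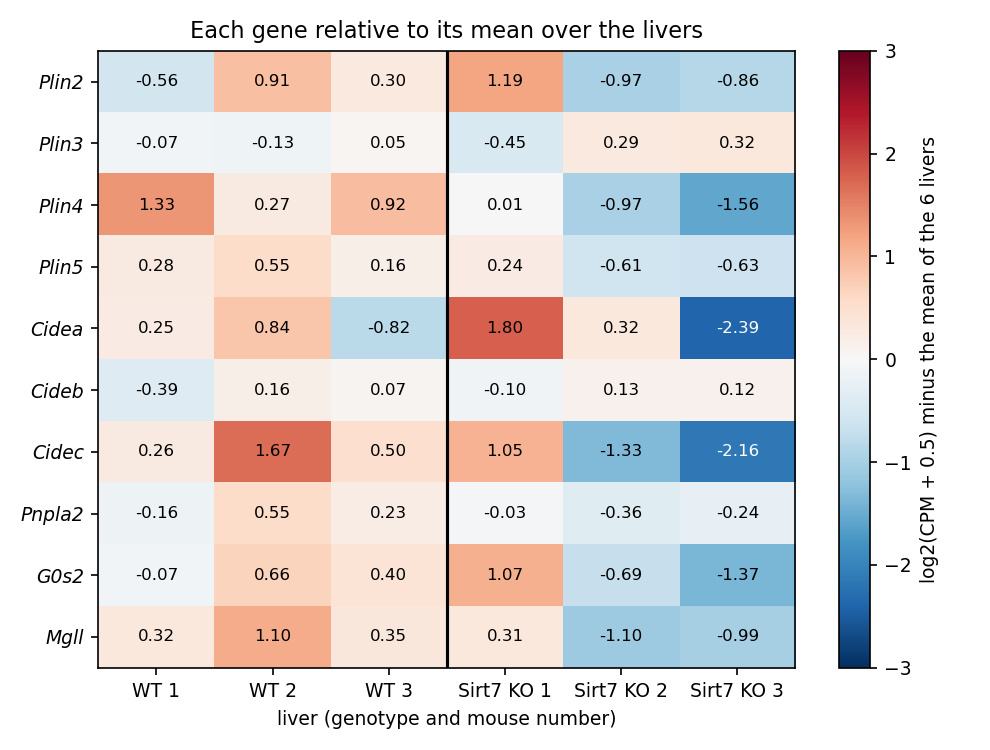
Each gene's log2(CPM + 0.5) in each liver minus its mean over the 6 livers, with the values written in the cells (red above the mean, blue below), and WT left and *Sirt7* KO right of the black line. The columns of *Sirt7* KO 2 and 3 are mostly blue, those of WT 2, WT 3 and *Sirt7* KO 1 mostly red, and that of WT 1 is mixed. The values of *Plin3*, *Cideb* and *Pnpla2* stay between -0.45 and 0.55.

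Relative to each gene's own mean over the livers, the median of the 10 genes on the log2(CPM + 0.5) scale was 0.10, 0.61 and 0.26 in WT 1, 2 and 3 and 0.28, -0.65 and -0.93 in *Sirt7* KO 1, 2 and 3. WT 2 was the highest liver for 5 genes and *Sirt7* KO 1 for 3. *Sirt7* KO 2 and 3 were the lowest pair for 7 genes. Within the WT genotype the span from the lowest to the highest liver was 1.14-fold for *Plin3* and 3.85-fold for *Cidea*, the ends of the list. Within *Sirt7* KO it was 1.17-fold for *Cideb*, 10.9-fold for *Cidec* and 62.7-fold for *Cidea*.

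Levels of different genes were compared in TPM, which is per length of transcript. *Plin2* came first with a mean of 423 TPM over the 6 livers (197 to 771 TPM), followed by *Cideb* at 230 TPM (190 to 252), *Mgll* at 156 TPM (66.1 to 303), *G0s2* at 140 TPM (47.4 to 242), *Pnpla2* at 68.1 TPM (52.1 to 96.0) and *Plin5* at 67.0 TPM (41.7 to 90.6). *Plin3* at 23.1 TPM (17.7 to 30.5), *Cidec* at 13.0 TPM (1.37 to 30.0), *Cidea* at 4.30 TPM (0.186 to 10.8) and *Plin4* at 2.95 TPM (0.745 to 6.44) were lower. The only neighbours in this order whose ranges over the livers did not overlap were *Plin5* and *Plin3*. *Plin4*, with the largest genotype difference, had the lowest mean TPM of the 10 genes.

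The perilipin mRNAs were compared by the share of each gene in the TPM of the 4 perilipins. These are shares of mRNA, and the protein makeup of the coat was not measured. *Plin2* made up 70.2, 85.5 and 81.6% in WT 1, 2 and 3 and 89.4, 73.9 and 73.1% in *Sirt7* KO 1, 2 and 3, and its share was highest in the liver with the highest sum. That sum was 376, 780 and 543 TPM in WT and 862, 266 and 271 TPM in *Sirt7* KO. *Plin4* made up 0.345 to 1.72% in WT and 0.254 to 0.432% in *Sirt7* KO, ranges that overlapped. The sum of the 3 CIDE genes was steadier, 205 to 282 TPM in WT and 232 to 258 TPM in *Sirt7* KO, since *Cideb* made up 86.4 to 99.4% of it. *Cidec* made up 5.36, 10.6 and 4.48% of the CIDE sum in WT and 8.91, 1.31 and 0.540% in *Sirt7* KO.

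**Figure D4:**
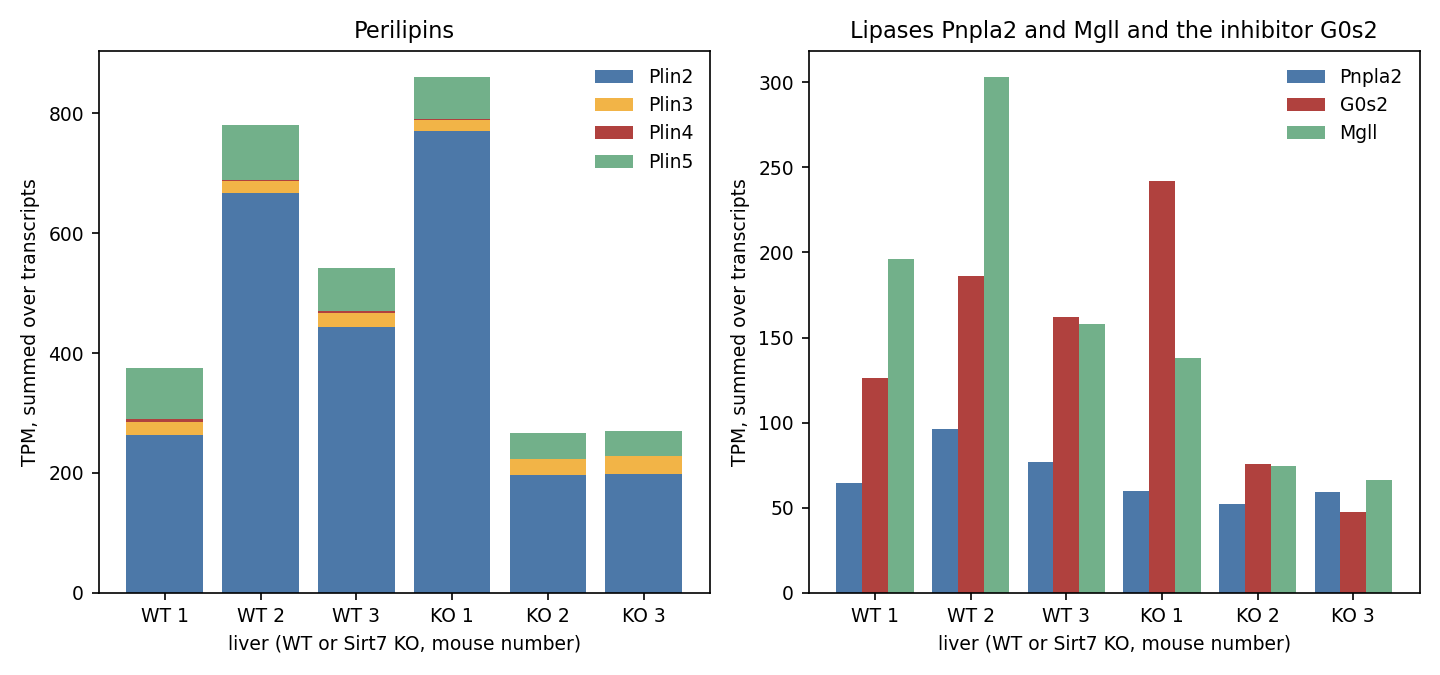
TPM in each liver, as stacked bars for the 4 perilipins (left) and side by side for the lipases *Pnpla2* and *Mgll* and the ATGL inhibitor *G0s2* (right), both axes from 0. The summed perilipin bar is highest in *Sirt7* KO 1 (862 TPM) and lowest in *Sirt7* KO 2 (266 TPM), and *G0s2* exceeds *Pnpla2* in every liver but *Sirt7* KO 3.

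The mRNAs of ATGL and its inhibitor, whose proteins were not measured, were compared by the ratio of *Pnpla2* to *G0s2* TPM. In WT it was nearly constant at 0.513, 0.515 and 0.475. In *Sirt7* KO it was 0.246, 0.688 and 1.25, so that *Sirt7* KO 1 lay below every WT liver and the other *Sirt7* KO livers above. The mean ratio was 0.501 ± 0.023 in WT and 0.728 ± 0.503 in *Sirt7* KO (SD, n = 3 each), a difference smaller than the spread within *Sirt7* KO. The ratio of *Mgll* to *Pnpla2* TPM was 3.03, 3.16 and 2.05 in WT and 2.32, 1.43 and 1.11 in *Sirt7* KO, and here the genotypes overlapped through WT 3 and *Sirt7* KO 1.

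The transcripts behind the gene sums limit what some values mean. For *Pnpla2*, transcripts annotated as protein-coding took 49.8, 46.9 and 44.6% of the reads in WT and 48.1, 30.0 and 40.4% in *Sirt7* KO, the rest being assigned mostly to a transcript annotated for nonsense-mediated decay. For *Mgll* the protein-coding share was 83.0 to 86.8% in WT and 77.4 to 89.6% in *Sirt7* KO. *Plin4* and *Cidec* each have a pair of nearly equal long transcripts, between which the estimated reads switched from liver to liver, so only their gene sums are given. *Cideb* shared 72.8% of its words of 31 bases with *Nop9*, which had 367 to 534 reads per liver against at least 2400 for *Cideb*, and its reads are in part uncertain. *Lamb3*, which encloses *G0s2*, had 10 to 80 reads. Words shared with other genes made up 5.16% of *Plin2*, 2.96% of *Plin3*, 2.15% of *Mgll* and 0.681% of *Plin5*.

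The lipid pathways around these genes were then counted from lists of known members, at an unadjusted p under 0.05 in the same fit. These lists, too, were chosen with earlier results of these data known. With all 6 livers the shares of all tested genes at that threshold, 4.78% lower and 6.54% higher, apply to each list. With 1 mouse left out these shares were 3.17 to 8.12% lower and 4.42 to 8.97% higher. None of the listed genes passed the adjusted test of edgeR with all 6 livers. DESeq2 with length offsets called *Hsd17b13*, *Abhd6*, *Lpin2* and *Hadha* as lower and *Ces3b* and *Pdia4* as higher, against 1.87% of all tested genes. Without *Sirt7* KO 1 edgeR called 7 of the 24 PPAR-alpha and fasting target genes, all lower, against 1.95% of all tested genes. PPAR-alpha and fasting target genes were lower in 13 of 24 and higher in 0, with a median log2 fold change of -0.69. The lowest p-values were those of *Cyp4a14* (-2.69, adjusted p = 0.20) and *Cyp4a10* (-1.81, adjusted p = 0.20), which encode fatty acid omega-hydroxylases, and of *Acadm* (-0.61) and *Acadl* (-0.50), acyl-CoA dehydrogenases of beta-oxidation (adjusted p = 0.25 each). *Cyp4a14* had 2751, 3182 and 2049 CPM in WT and 884, 268 and 82.8 CPM in *Sirt7* KO. On the scale relative to each gene's own mean over the livers, the median of this list was 0.00, 0.82 and 0.35 in WT and 0.26, -0.78 and -0.56 in *Sirt7* KO, with the lowest values in *Sirt7* KO 2 and 3, as for the droplet genes. The count of 13 was 21 without *Sirt7* KO 1, where 8.12% of all tested genes were lower. It was 5 without WT 2 (3.56% of all tested genes), 6 without *Sirt7* KO 2 (3.17%) and 6 without *Sirt7* KO 3 (3.43%).

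Further droplet coat and biogenesis genes were lower in 2 of 15 and higher in 0, with a median of -0.05. These were *Hsd17b13* and *Hsd17b11*, droplet-bound dehydrogenases of the same family. *Hsd17b13* had 491, 827 and 604 CPM in WT and 421, 307 and 299 CPM in *Sirt7* KO, without overlap (log2 fold change -0.90, adjusted p = 0.19). *Hsd17b11* had a log2 fold change of -0.87 (adjusted p = 0.24). The next genes by p-value, *Acsl3* at 0.67 and *Fitm2* at -0.50, overlapped between genotypes. Without WT 2, 2 genes of this list were higher (5.39% of all tested genes), and without *Sirt7* KO 3, 1 was (4.76%).

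Further lipases and cofactors were lower in 4 of 18 and higher in 2, with a median of 0.02. *Ces3b* had 110, 127 and 173 CPM in WT and 209, 268 and 315 CPM in *Sirt7* KO (log2 fold change 0.95, adjusted p = 0.17), and its neighbour in the carboxylesterase family, *Ces3a*, had a log2 fold change of 0.74 (adjusted p = 0.25). *Abhd6*, another monoglyceride hydrolase, had a log2 fold change of -0.98 (adjusted p = 0.20), close to the -1.08 of *Mgll*, and *Ces1d*, a triglyceride hydrolase, one of -0.76 (adjusted p = 0.22). Carboxylesterase genes are close paralogs, and reads shared between them could be split differently. Without *Sirt7* KO 1, 4 genes of this list were higher, against 8.97% of all tested genes.

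Triglyceride synthesis enzymes were higher in 4 of 17 and lower in 2, with a median of 0.08. With 1 mouse left out, the higher count was 1 without WT 1, 3 without *Sirt7* KO 1 and 2 in the other fits. The lower count was 5 without *Sirt7* KO 1 and 2 or 3 in the other fits. In these fits 4.42 to 8.97% of all tested genes were higher and 3.17 to 8.12% lower, both shares being largest without *Sirt7* KO 1. *Lpin2*, a phosphatidate phosphatase, had 232, 270 and 310 CPM in WT and 142, 165 and 162 CPM in *Sirt7* KO (log2 fold change -0.79, adjusted p = 0.14). The acyltransferases *Agpat3* (-0.62) and *Agpat2* (0.55) had opposite signs, and *Acsl4*, an acyl-CoA synthetase, had a log2 fold change of 0.79 (adjusted p = 0.34). Genes of very low density lipoprotein assembly were higher in 1 of 9 and lower in 0, with a median of -0.11. That gene was *Pdia4*, a protein disulfide isomerase that is not specific to lipoprotein assembly, at 0.77 (adjusted p = 0.12). No other gene of the list was at that threshold. *Surf4*, *Mttp* and *Tm6sf2* followed with 0.20, -0.21 and -0.24 and unadjusted p of at least 0.18.

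Of the transcription factors and coactivators known to act on droplet genes, 3 of 12 were lower and 1 was higher, with a median of -0.37. The lower count was 6 without *Sirt7* KO 1 (8.12% of all tested genes), 1 without WT 3 (3.81%) and 1 without *Sirt7* KO 2 (3.17%). The higher count was 1 without WT 3 (6.01%) and 1 without *Sirt7* KO 1 (8.97%). It was 0 in the other fits with 1 mouse left out. *Rxra*, the partner of PPAR-alpha, had 129, 129 and 127 CPM in WT and 100, 93.5 and 99.3 CPM in *Sirt7* KO without overlap (log2 fold change -0.40, adjusted p = 0.28). *Ppara* itself had 100, 163 and 150 CPM in WT and 117, 83.0 and 77.4 CPM in *Sirt7* KO (log2 fold change -0.57, adjusted p = 0.38), with *Sirt7* KO 1 again inside the WT range. *Foxo1*, a driver of the fasting response, had a log2 fold change of -0.40 (adjusted p = 0.42). *Srebf1*, which drives lipid synthesis after feeding, had 35.4, 57.0 and 92.9 CPM in WT and 67.8, 134 and 183 CPM in *Sirt7* KO (log2 fold change 1.05, adjusted p = 0.36).

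**Figure D5:**
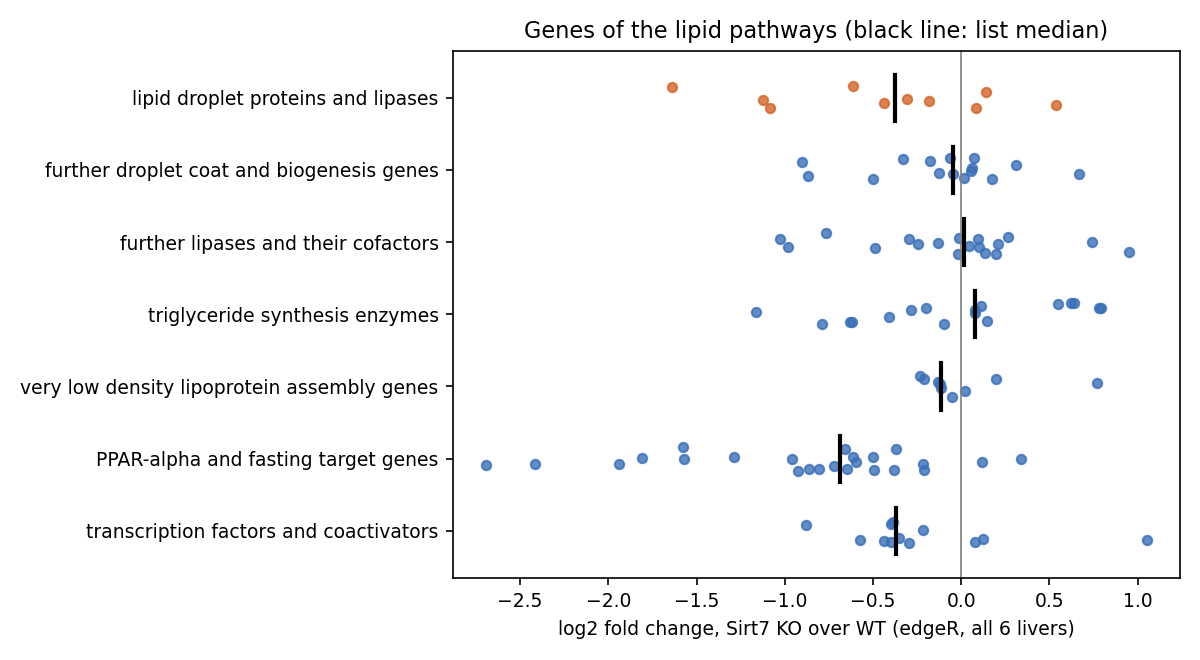
Fitted log2 fold change of *Sirt7* KO over WT (horizontal axis) of each tested gene in the droplet and lipase list (orange) and in 6 lists of related genes (blue), with a black line at each list's median. The medians are -0.37 for the droplet and lipase genes and also for the transcription factors, -0.69 for the PPAR-alpha and fasting targets and -0.11 to 0.08 for the droplet coat, lipase, synthesis and lipoprotein lists, and no gene shown passed the adjusted test of edgeR.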

How the data were processed

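RNA-seq libraries were prepared from total liver RNA with SMART-Seq HT and Nextera XT, and adapters were trimmed by the authors (Trim Galore 0.6.5) before quantification with Salmon 1.2.1 against transcripts of GRCm38, per the labels and the study's methods. The deposited values are estimated counts per transcript, which are not normalized, and TPM, in which the authors' run of Salmon corrected for effective length and for the total of the library. The deposited effective lengths were identical in all 6 livers. The annotation release is not given in the sources used here.

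Estimated counts were added up per gene by the annotation of GENCODE M21 and rounded, and 1201 of 140992 transcripts without a gene there, with 0.303 to 0.492% of reads, were left out. Genes were tested with edgeR 4.0.16 (R 4.3.3; quasi-likelihood test, TMM, filterByExpr with a minimum count of 10, Benjamini-Hochberg adjustment over all 12524 tested genes), with no covariate. A call needed an adjusted p under 0.05 and a fold change over 1.5. The procedure was tested on simulated counts. Intervals cover 95%. Alternatives were RLE or no scaling, other filters, transcript length offsets, DESeq2 1.42.0 (the tool of the study's methods), the replicate number as a block, other call rules, and each mouse left out in turn. For the pathway lists, leaving out each mouse was chosen after seeing the data. Where a genotype kept 2 livers, the same fit was made on the remaining livers, with each gene's spread moderated by that of the other genes. Chi-square per gene between livers of the same genotype was at least 15.8, so each counted as 1 sample.

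The 10 genes and all gene lists were chosen with earlier results of these data known. Named genes were the 10, *Sirt7*, in each pathway list at most the 4 genes with the smallest p, and in each marker list the marker with the highest mean CPM; *Cfd*, *Adipoq*, *Nop9*, *Lamb3*, *Hadha* and *Stab1* were named after their values were seen. Promoters came from RefSeq and were searched with Python 3.11.15. Sequencing reads were single-end and unstranded, and molecular identifiers are not mentioned, so depth covers counting error only.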

Additional observations from a re-analysis of the deposited data

How the results depend on the processing

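The 10 genes were fitted under 14 alternatives each. Of these 140 log2 fold changes, 122 kept their direction and their side of the threshold, 10 passed the threshold where the fit of all 6 livers did not, and 8 changed sign. Sign changes were seen for *Plin2* (0.22 without WT 2, 0.16 without *Sirt7* KO 2 and 0.14 without *Sirt7* KO 3; range with 1 mouse left out -1.25 to 0.22), *Cidea* (-0.12 with the replicate block, -0.85 to 1.10 with 1 mouse left out), *Cideb* (-0.0111 with total counts, -0.0701 to 0.20 with 1 mouse left out) and *G0s2* (-1.36 to 0.0827 with 1 mouse left out). None of these 4 differed past the threshold with all livers. Scaling by total counts moved the median of all genes to -0.11.

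The count of called genes among all tested was 1 with all livers, 2 with total counts, 633 without a filter (417 higher, 216 lower), 2 with length offsets in edgeR, 256 with DESeq2 and 242 with DESeq2 and offsets, 925 at an unadjusted p with the fold change, and 0 to 252 with 1 mouse left out, the highest without *Sirt7* KO 1. Of the 10 genes, 3 were at an unadjusted p under 0.05 with all livers, 5 without a filter and 1 to 8 with 1 mouse left out. Without a filter 3.48% of all tested genes were lower and 4.99% higher. With 1 mouse left out 3.17 to 8.12% were lower and 4.42 to 8.97% higher. In 2 of the 10 genes the genotypes did not overlap, and in 2 to 8 with 1 mouse left out. There, all *Sirt7* KO livers lay below all WT livers in 11.6 to 18.4% of tested genes and above in 12.3 to 18.5%. With all livers these shares were 8.09 and 8.74%. The pathway lists had 15, 18, 17, 9, 24 and 12 tested genes with all livers. Each gene counted once, 32 were at an unadjusted p under 0.05 (8 higher and 24 lower), and 20 to 47 with 1 mouse left out. Of all tested genes, 6.54% were higher and 4.78% lower at that threshold with all livers.

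With the replicate number as a block, 41 genes were called, and the median log2 fold change of the 10 genes was -0.59. In that fit 3 of the 10 were at an unadjusted p under 0.05, all lower. Of all tested genes 4.69% were lower and 6.73% higher there. Deviations of same-numbered livers correlated at 0.067, 0.058 and -0.055, and those of differently numbered livers at -0.091 to 0.052. With 3 livers per genotype, such values cannot decide whether the numbers pair the mice. *Cidea* had the fewest reads of the 10, 2 to 132 per liver. The cause of the differences between alternatives was not tested.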
